A study of Mus musculus with 57 samples.

Results

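The genes Tmem100 and Pmp22 were described in 57 single cells of the mouse renal vesicle, as 2 of the 12087 genes with values in the deposited expression table. They were chosen by symbol, because earlier results of the same data had shown both high in cells with the proximal gene Wt1, low in cells with distal genes, and low in cells with the podocyte gene Synpo. Those 3 patterns therefore chose the genes and are given below as a description, with no test. The cells came from kidneys of Tg(Crym-EGFP)82Gsat mice at postnatal day 4, on a mixed background, of sex labelled unknown in all cells but 1, which was labelled as both. In this line a bacterial artificial chromosome places the fluorescent protein EGFP under the control of Crym, and cells were sorted by fluorescence, captured on a Fluidigm C1 chip, and amplified with the SMARTer kit. All cells came from 1 pool of 2 kidneys, so they form 1 group with no replicate pool, no cell is a replicate of a condition, and no p-value was computed. The series was made towards a map of transcription during kidney development.

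The renal vesicle is the first epithelial stage of the nephron. Its proximal end, marked by Wt1, gives rise to the podocytes and parietal cells of the glomerulus, and its distal end, marked by transcription factors such as Pou3f3 and Sox9, contributes to the tubule. Synpo encodes synaptopodin, an actin-binding protein of differentiated podocytes. Tmem100 encodes a small transmembrane protein best known in arterial endothelium, where it is a target of BMP signalling through the ALK1 receptor. Pmp22 encodes a tetraspan membrane glycoprotein of compact myelin that is also made in epithelia and was first found as a growth arrest gene.

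Levels are in RPKM, read counts scaled to gene length and to the mapped reads of the cell, so they may be compared between genes. Detection means RPKM 1 or more, and a level of RPKM 20 or more is called high. Beside each share of cells stands its exact 95% interval by the method of Clopper and Pearson, for counting error in this pool alone. The median cell had an estimated 1.47 M reads, the shallowest 0.475 M and the deepest 2.29 M, and 2809 to 6502 genes were detected per cell, with a median of 4307. A single read was worth RPKM 0.248 to 1.19 of Tmem100, depending on the cell, and 0.243 to 1.17 of Pmp22. Values below RPKM 1 thus stood on a few reads at most.

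Tmem100 (gene ID 67888) lies on chromosome 11 at 89891662 to 89897819 and Pmp22 (gene ID 18858) on the same chromosome at 62945012 to 62973048, on build mm9. RefSeq promoter sequence, 250 bases before to 50 after an annotated start on build GRCm38.p6, was matched to Pmp22 in 4 windows. The outermost windows are printed because Pmp22 is transcribed from alternative first exons and the deposited values do not separate them. Capitals mark matches to the GC box GGGCGG and to GGCGCC, an element bound by SMAD proteins, on either strand.
Pmp22 upstream start, chr11:63128732-63129031, plus strand: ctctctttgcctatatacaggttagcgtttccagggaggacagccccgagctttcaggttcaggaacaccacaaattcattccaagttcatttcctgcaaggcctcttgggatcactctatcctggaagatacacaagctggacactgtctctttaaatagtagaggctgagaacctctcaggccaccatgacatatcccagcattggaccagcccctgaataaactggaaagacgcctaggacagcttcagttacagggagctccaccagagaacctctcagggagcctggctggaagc
Pmp22 downstream start, chr11:63132553-63132852, plus strand: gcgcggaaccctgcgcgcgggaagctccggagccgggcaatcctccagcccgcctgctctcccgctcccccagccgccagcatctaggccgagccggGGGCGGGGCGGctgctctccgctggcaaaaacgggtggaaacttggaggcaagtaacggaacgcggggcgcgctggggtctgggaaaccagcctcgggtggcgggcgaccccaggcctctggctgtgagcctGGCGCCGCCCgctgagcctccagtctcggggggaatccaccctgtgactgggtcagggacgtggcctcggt

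The upstream window had a GC content of 50.7% and none of the motifs searched. The downstream window had a GC content of 72.3%, with 3 GC boxes and 1 GGCGCC, which overlapped a GC box. Of the windows between them, that starting at 63131207 had a GC content of 60%, 3 GC boxes and 1 GGCGCC, and that starting at 63132319, which overlaps the downstream window, had a GC content of 66.3% and no match. The letters GCGTGGGNG, a motif of WT1 and EGR proteins, and the TATA box TATAAA were not found in any of the 4 windows. Among 32851 mouse promoter windows of the same length, 35.7% held the GC box, 11.9% GGCGCC, 1.90% GCGTGGGNG and 13.6% TATAAA. A match is a description of letters, not a binding site, and its absence says nothing of the factor.

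Pmp22 was found in nearly every cell and Tmem100 in about as many cells as lacked it. Tmem100 was detected in 31 of 57 cells (54.4%, interval 40.7 to 67.6), with a lowest RPKM of 0, a median of 2.13 and a highest of 813 in cell 9. Pmp22 was detected in 54 of 57 (94.7%, interval 85.4 to 98.9), from a lowest RPKM of 0.281, a median of 175 and a highest of 3863 in cell 29. Mean RPKM was 122 ± 208 (SD, n = 57 cells) for Tmem100 and 377 ± 628 for Pmp22, and by this mean they ranked 608 and 163 among all genes. The spread was larger than the mean for both, and each was near 0 in some cells and high in others. Tmem100 was listed at 0 in 18 cells, lay above 0 and below 3 in 11, at 3 to below 20 in 5, at 20 to below 100 in 5, and at 100 or more in 18. Pmp22 was at 0 in no cell and lay below 3 in 12 cells, at 3 to below 20 in 6, at 20 to below 100 in 7, and at 100 or more in 32.

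Cells were grouped by genes other than the members. Those with the complement gene C1qb at RPKM 500 or more were called macrophage-like (5 cells), and the other 52 were divided by Wt1, Pou3f3 and Sox9 at RPKM 20. Wt1 without the distal factors was high in 34 cells, a distal factor without Wt1 in 12, both in 2 and neither in 4. Just inside and outside these limits, Wt1 was 21.5 in cell 23 and 10.9 in cell 47, Sox9 was 21.7 in cell 32 and 14.7 in cell 23, and Pou3f3 was 20.8 in cell 47 and 15.1 in cell 20. The limit on C1qb was not near any cell, with 1589 in the lowest macrophage-like cell and 129 in the highest other cell. A class is a range of marker levels, not a named cell type. The summed level of 14 macrophage genes was 10033 to 20314 in the macrophage-like cells and at most 304 in any other cell. C1qb, which set this class, is 1 of the 14 and gave 1589 to 2362 of the sum in the macrophage-like cells. The renal epithelial factor Pax8 was at RPKM 1.99 or less in all macrophage-like cells and below 1 in cells 13 and 53, and at 10.7 or more in the other 50.

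In the 34 cells with Wt1 only, Tmem100 ran from 0 through a median of 70.1 to 813, was detected in 24 (70.6%, interval 52.5 to 84.9), and was high in 19. In the 12 distal-only cells it ran from 0 through a median of 0.339 to 156, was detected in 4 (33.3%, interval 9.92 to 65.1), and was high in 2. The ranges overlapped fully at the low end, since 10 Wt1-only cells were below detection, and overlapped at the high end through cell 45 alone above RPKM 100. The difference in mean log2(RPKM + 1) was 3.11, with SDs over cells of 3.75 and 2.45. In other words the Wt1-only cells were themselves divided, and the difference between classes was smaller than the spread within the Wt1-only class.

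Pmp22 was more evenly spread over the Wt1-only cells. It ran from RPKM 0.452 through a median of 314 to 3863 there, was detected in 33 of 34 cells (97.1%, interval 84.7 to 99.9) and was high in 28. In the distal-only cells it ran from 0.281 through a median of 2.39 to 158, was detected in 10 of 12 (83.3%, interval 51.6 to 97.9), and was high in 2. Detection was thus common in both classes, and it was the level that set them apart. The mean log2 difference was 5.05, with SDs of 2.97 and 2.15, and so larger than the spread in either class. For scale, 815 of 7866 genes detected in at least 10 of the 52 cells (10.4%) were 2-fold or more higher in Wt1-only than in distal-only cells by the same measure, and 882 (11.2%) were 2-fold or more lower. Both members lay among the former, and this is the contrast by which they were chosen.

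**Figure D1:**
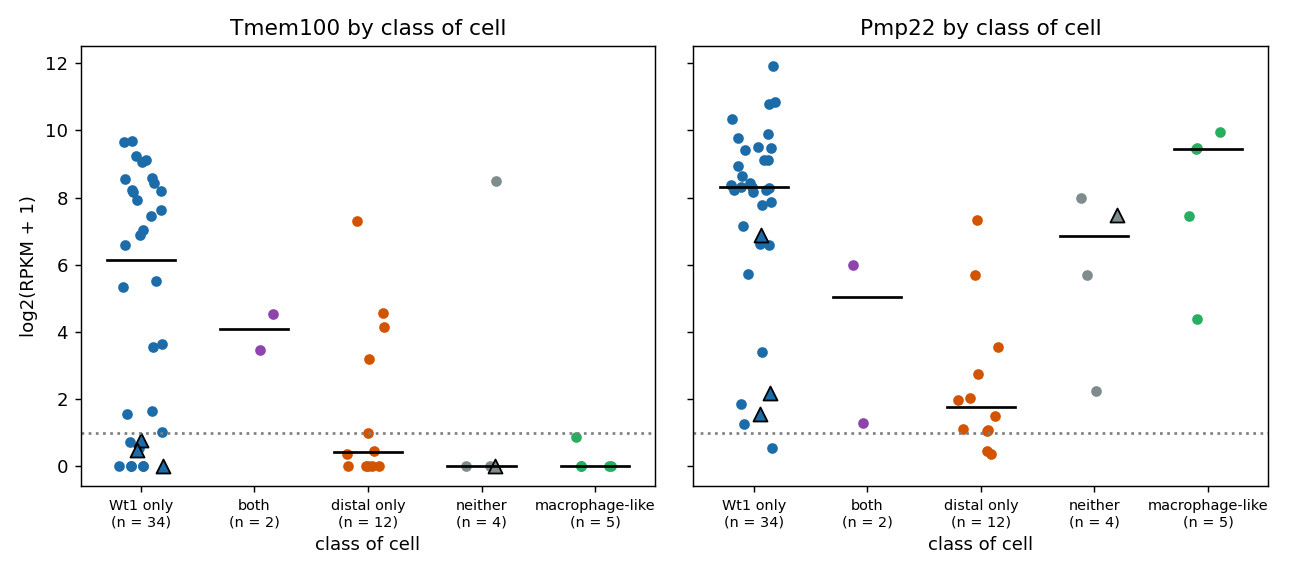
Level of Tmem100 (left) and Pmp22 (right), as log2(RPKM + 1), in each of 57 cells by class; points are cells, bars are medians, triangles are cells with Synpo at RPKM 50 or more and the dotted line is RPKM 1. Tmem100 in Wt1-only cells splits into a high and a low set, while Pmp22 is high in 28 of 34 Wt1-only cells and in 2 of 12 distal-only cells.

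The few cells outside these patterns differed between the members. Among the distal-only cells, cell 45 had Tmem100 at RPKM 156 and Pmp22 at 1.10, and cell 47 had 22.6 and 5.66, so Tmem100 was present where Pmp22 was almost absent. Cell 15 showed the reverse, with Tmem100 at 0 and Pmp22 at 158, and cell 33 had 16.6 and 50.5. Cell 45 held Sox9 at RPKM 84.7 and Wt1 at 0.593, with 12 of 25 distal genes and 10 of 17 proximal vesicle genes at RPKM 20 or more. The 2 cells with Wt1 and a distal factor had Tmem100 at 22.2 and 10.0 and Pmp22 at 1.44 and 63.0, in cells 41 and 36. They lay between the 2 larger classes in median for both genes.

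Of the 4 cells with neither Wt1 nor a distal factor, cell 37 had Tmem100 at RPKM 361, on an estimated 754 reads, and Pmp22 at 3.75. This cell held Pax8 at RPKM 1160.0, the highest of any cell, with 2 of 25 distal, 2 of 39 podocyte and 2 of 17 proximal vesicle genes at RPKM 20 or more. The other 3 cells, numbers 42, 3 and 53, had Tmem100 at 0 and Pmp22 at 254, 50.7 and 178. Cell 53 carried Pax8 at 0.437 and 9 of 10 stromal genes at RPKM 20 or more, among them Pdgfra at 365, a receptor of stromal fibroblasts that was named after its values were seen. In this class, too, a cell was high for one member or the other, never both.

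The macrophage-like cells set the members apart most plainly. Tmem100 was at RPKM 0 in 4 of them and 0.818 in cell 46, about 2 reads, so it was detected in 0 of 5 cells, which allows a share of up to 52.2%. Pmp22 was at 699, 712, 175, 20.0 and 981 in cells 1, 25, 35, 46 and 58, all at or above RPKM 20. The highest macrophage-like cell stood above the Wt1-only median of 314 and the lowest above 10 of the 12 distal-only cells. High Pmp22 was thus found in cells without Wt1 as well.

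By median over the 5 classes, Tmem100 was highest in Wt1-only cells (70.1), then in cells with both factors (16.1), distal-only cells (0.339), and the other 2 classes (0 each). Pmp22 was highest in macrophage-like cells (699), then in Wt1-only cells (314), cells with neither factor (114), cells with both (32.2) and distal-only cells (2.39). Neighbours in both orders overlapped in their ranges over cells. For 3 of the 5 classes the order rests on 2 to 5 cells.

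Once Wt1 was present, neither member had a clearly higher median in the upper range of Wt1. With Wt1 below RPKM 1 (9 cells) the median was 0 for Tmem100 and 3.75 for Pmp22, and with Wt1 at 1 to below 20 (7 cells) it was 0.376 and 1.83. With Wt1 at 20 to below 200 (19 cells) the medians were 130 and 313, with 15 and 18 cells detected. With Wt1 at 200 or more (17 cells) they were 11.6 and 296, with 11 and 17 cells detected. This range holds 3 cells with Synpo at RPKM 50 or more, described below, and in its other 14 cells the medians were 42.0 and 317. The step thus lay at Wt1 RPKM 20, which is a limit set here, and above it the median of Tmem100 was lower in the upper range while that of Pmp22 was close.

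Rank correlations over cells describe the same pattern; the cells share 1 pool and differ in depth. Over the 52 cells, Spearman rank correlation with Wt1 was 0.298 for Tmem100 and 0.480 for Pmp22. Over the 36 cells with Wt1 at RPKM 20 or more it was -0.103 and 0.0988, and over the 33 of these with Synpo below 50 it was 0.0703 and 0.289. With the distal factor Pou3f3, rank correlation over 52 cells was -0.260 for Tmem100 and -0.549 for Pmp22, and with Sox9 it was -0.179 and -0.412. Pmp22 was thus further from the distal factors than Tmem100. The number of detected genes in a cell had a rank correlation of 0.289 with Tmem100 and 0.141 with Pmp22, and over the 36 Wt1 cells that of Tmem100 was 0.395, so cells with more detected genes also had more Tmem100. The part of this in the split of Tmem100 was not tested.

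**Figure D2:**
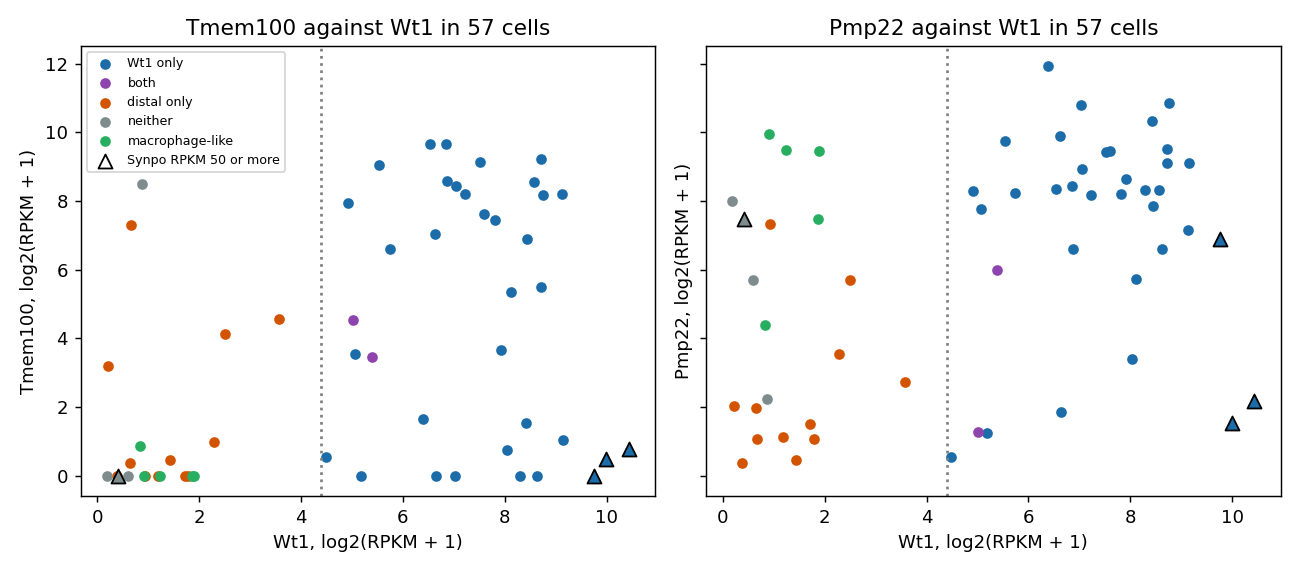
Level of Tmem100 (left) and Pmp22 (right) against Wt1, all as log2(RPKM + 1), in 57 cells; colours give the class, triangles mark Synpo at RPKM 50 or more and the dotted line is Wt1 at RPKM 20. To the right of the line Pmp22 is high in 15 of 19 cells with Wt1 at RPKM 20 to below 200 and in 14 of 17 with Wt1 at 200 or more. The 3 cells with the most Wt1 are at or near 0 for Tmem100, and 2 of them are low for Pmp22.

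Synpo was at RPKM 50 or more in 4 cells. Of these, cell 53, described above, had Synpo at 59.3 with Wt1 at 0.330, Tmem100 at 0 and Pmp22 at 178. The other 3 were the cells with the highest Wt1, and they are called the Synpo cells below. Wt1 was at RPKM 1382, 1019.5 and 865 and Synpo at 142, 77.3 and 56.6 in cells 2, 10 and 34. Tmem100 was at 0.717, 0.393 and 0 in them, about 1, 1 and 0 reads, so it was detected in 0 of 3 cells, which allows a share of up to 70.8%. Pmp22 was at 3.51, 1.92 and 117. Tmem100 was low in all 3, and Pmp22 was low in 2 of them while in cell 34 it rested on an estimated 332 reads.

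In the other 33 cells with Wt1 at RPKM 20 or more, Tmem100 ran from 0 through a median of 95.9 to 813 and was detected in 26 (78.8%, interval 61.1 to 91.0). Pmp22 ran from 0.452 through a median of 315 to 3863 and was detected in 32. Mean log2(RPKM + 1) was lower in the Synpo cells by a difference of -4.79 for Tmem100, with SDs of 0.39 and 3.54, and of -4.04 for Pmp22, with SDs of 2.92 and 2.89. Without cell 34 the difference for Pmp22 was -5.72, and without cell 10 it was -3.05. Against only the 14 other cells with Wt1 at RPKM 200 or more, where Tmem100 had a median of 42.0 and Pmp22 a lowest value of 9.47 and a median of 317, the differences were -4.32 and -4.54. Low Tmem100 was not limited to the Synpo cells, since 7 of the other 33 cells were also below detection, whereas 1 of the 33 was for Pmp22.

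With 3 cells against 33, many genes stood apart by this measure. Of the 7866 genes, 2721 (34.6%) were 2-fold or more lower in the Synpo cells and 1478 (18.8%) were 2-fold or more higher. Both members were among the 2721, which is the contrast that chose them, and a place in so large a set says little. Apart from cell 53, cell 13 was the only other cell with Synpo above RPKM 20, at 22.3. Cell 13 had Wt1 at 35.3, Tmem100 at 0, Pmp22 at 1.39 and 7 of 10 stromal genes at RPKM 20 or more, with Pdgfra at 237, while in cells 2, 10 and 34 that count was 2, 0 and 1 and Pdgfra was at RPKM 0.0711 or less.

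Podocyte genes went the other way in the same 3 cells. Of 44 podocyte genes listed, 39 had values and 23 were detected in enough cells to be compared, and 18 of these were 2-fold or more higher in the Synpo cells and 1 was lower, where the shares over all genes were 18.8% and 34.6%. The 3 cells had 20, 23 and 20 of the 39 genes at RPKM 20 or more, against 2 to 11 in the other Wt1 cells. Synpo, which chose the 3 cells, is 1 of the 39. Other lists of genes also parted these 3 cells from the rest, and some are given below. Of 16 proximal vesicle genes compared, which share Tcf21 and others with the podocyte list, 9 were higher and 5 lower. Of 10 housekeeping genes, 0 were higher and 4 lower. Tcf21, a transcription factor of podocyte precursors, was at RPKM 138, 892 and 1474 in cells 2, 10 and 34. In the other Wt1 cells its median was 3.06 and its highest value was 548, in cell 13, above that of cell 2. It was at 1194 in cell 53.

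The tight junction gene Cldn5 was at 393, 209 and 76.0 in these cells. In the other Wt1 cells its median was 1.67 and its highest value was 350, in cell 5. The cell cycle inhibitor Cdkn1c was at 52.1, 316 and 300, against a median of 48.5 and a highest value of 230, in cell 21. The ranges of Tcf21, Cldn5 and Cdkn1c thus overlapped between the Synpo cells and the other Wt1 cells. Named after their values were seen, the slit diaphragm gene Nphs1 was at 27.9, 24.8 and 0, and the surface sialoprotein gene Podxl at 51.3, 66.5 and 16.6. The podocyte gene that was lower was Npnt, an extracellular matrix protein that was detected in none of the 3 cells and had a highest RPKM of 327 elsewhere among Wt1 cells. Tmem100 and Pmp22 thus shared high Wt1 cells with the podocyte list only in part.

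Other gene groups moved with the same 3 cells, and their part in the low members was not tested. All 18 G2/M genes were 2-fold or more lower, against 34.6% of all genes, and their summed RPKM was 97.8, 4.58 and 4.15 in cells 2, 10 and 34 against a median of 1058 in the other Wt1 cells. Of 16 S phase genes, 14 were 2-fold or more lower, with a summed level of 301 to 609 against a median of 2384. Of 7 immediate early genes, 5 were 2-fold or more higher, against 18.8% of all genes. They were Fos, Egr1, Ier2, Btg2 and Dusp1, named after their values were seen. Btg2, an inhibitor of proliferation, was at RPKM 1534, 1369.9 and 1585 in these cells. The 13 measured genes of that list summed to 1759 to 3349.5 against a highest value of 619 in the other Wt1 cells. In the macrophage-like cells they summed to 109 to 3435, with a median of 1672, so high sums were not particular to the Synpo cells. Of 20 distal genes, 13 were lower. The median number of detected genes was 3815 in the Synpo cells and 4391 in the others.

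**Figure D3:**
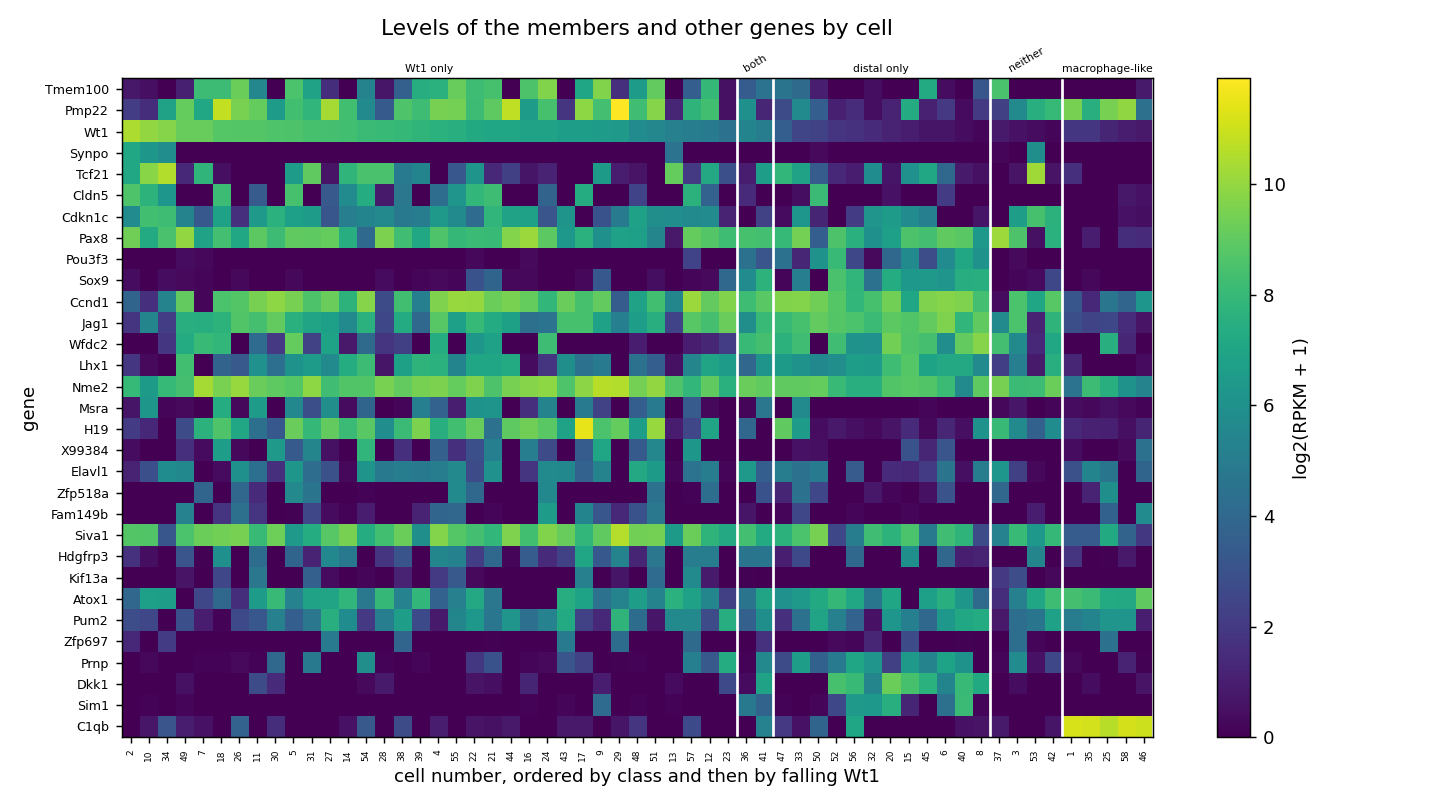
Level of 31 named genes (one per line of the map), as log2(RPKM + 1) in colour, in 57 cells ordered by class and then by falling Wt1; white lines part the classes. Cells 2, 10 and 34 at the left show high Tcf21 and Cldn5, as do some other Wt1 cells. These 3 cells have little or no Tmem100 and, in 2 of the 3, little Pmp22. The macrophage-like cells at the right show Pmp22 without Tmem100.

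Tmem100 was never detected without Pmp22. At RPKM 1, 31 cells had both, 23 had Pmp22 alone, 3 had none, and no cell had Tmem100 alone. This follows in part from Pmp22 being detected in 54 of 57 cells. At RPKM 20, 19 cells had both, 20 had Pmp22 alone, 4 had Tmem100 alone and 14 had none.

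All 19 cells that were high for both belonged to the 34 Wt1-only cells, where 9 more were high for Pmp22 alone, 6 for none and no cell for Tmem100 alone. The 4 cells with Tmem100 alone, numbers 37, 41, 45 and 47, were all outside the Wt1-only class. The rank correlation between the genes was 0.477 over 52 cells, 0.409 over the 36 Wt1 cells and 0.318 over the 33 of these with Synpo below 50. Pmp22 was thus found at a high level both with and without Tmem100, and a high Tmem100 level came with high Pmp22 only among cells with Wt1.

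The 9 Wt1-only cells with high Pmp22 and Tmem100 below RPKM 20 included 3 of the 4 highest Pmp22 values in the data. Cell 29 had Pmp22 at RPKM 3863, rank 5 among all genes of that cell, and Tmem100 at 2.13. Cell 44 had 1756 and 0, and cell 27 had 1287 and 1.93. Pmp22 in these cells rested on an estimated 11323, 4025 and 3410 reads, and Tmem100 on about 6, 0 and 5. The highest Tmem100 levels, 813 in cell 9 and 812 in cell 24, came with Pmp22 at 328 and 348, close to its Wt1-only median.

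**Figure D4:**
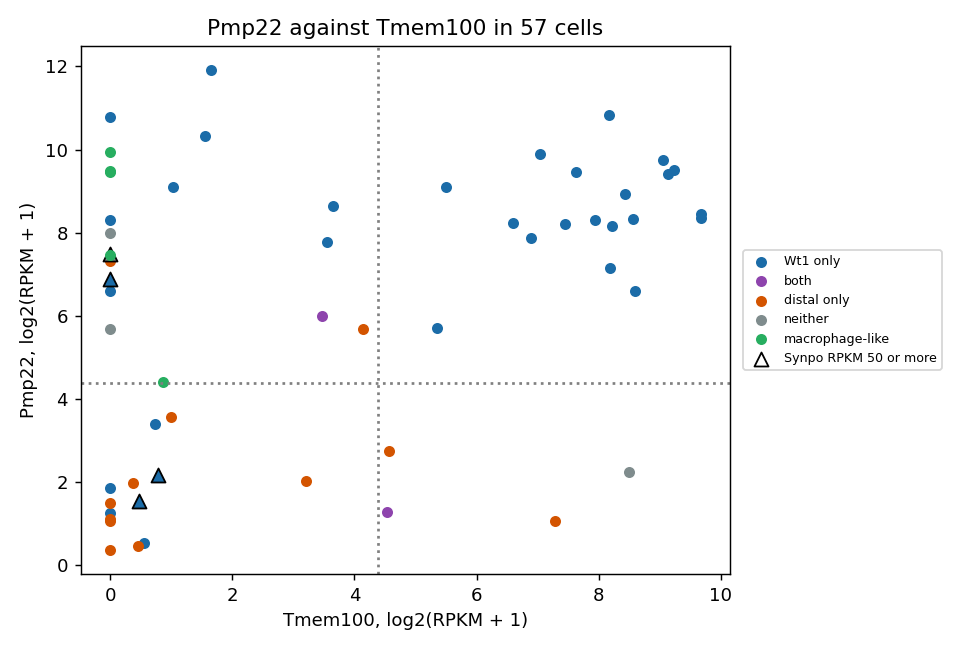
Level of Pmp22 against Tmem100, both as log2(RPKM + 1), in 57 cells; colours give the class, triangles mark Synpo at RPKM 50 or more, and dotted lines are RPKM 20. The upper right holds 19 cells, all with Wt1 only, and the upper left holds 20 cells with Pmp22 but little Tmem100, among them all 5 macrophage-like cells.

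The genes whose levels ran most alike with each member were ranked by Spearman rank correlation over the 52 cells, among 7865 other genes detected in at least 10 of them. For Tmem100 the 6 highest were Nme2, a nucleoside diphosphate kinase (0.649), Msra, which reduces oxidised methionine (0.600), the imprinted RNA H19 (0.587), X99384 (0.531), the RNA-binding protein gene Elavl1 (0.530) and the zinc finger gene Zfp518a (0.529). For Pmp22 they were H19 (0.697), Fam149b (0.629), Nme2 (0.585), the apoptosis gene Siva1 (0.555), Hdgfrp3 (0.537) and the kinesin gene Kif13a (0.526). Nme2 and H19 stood in both. Nme2 lies next to the closely related Nme1, and reads shared between them were not examined.

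H19 was at RPKM 0 to 2845 in Wt1-only cells, with a median of 224 and detection in 31 of 34, and at 0.189 to 517 in distal-only cells, with a median of 0.642 and detection in 5 of 12. Its highest value was 3.39 in the 3 Synpo cells and 1.50 in the macrophage-like cells. H19 was thus low in all 3 Synpo cells and in the macrophage-like cells, as Tmem100 was, whereas Pmp22 was low in 2 of the Synpo cells and in none of the macrophage-like cells. Nme2 was detected in all 52 cells, with a median of 564 in Wt1-only and 412 in distal-only cells, so its likeness rested on smaller differences in level.

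At the other end, genes with some of the lowest rank correlations with Tmem100 were the copper chaperone gene Atox1 (-0.436), the RNA-binding protein gene Pum2 (-0.407) and Zfp697 (-0.404). The lowest with Pmp22 belonged to the prion protein gene Prnp (-0.568), the Wnt inhibitor gene Dkk1 (-0.557) and the transcription factor genes Sim1 (-0.552) and Pou3f3 (-0.549). Dkk1 had a median of RPKM 172 in distal-only cells and a highest value of 5.88 in Wt1-only cells. In total 399 genes (5.07%) had a rank correlation of 0.3 or more with Tmem100 and 329 (4.18%) with Pmp22, and 57 (0.725%) and 167 (2.12%) had -0.3 or less. Of those at 0.3 or more, 99 were shared, 24.8% of the list for Tmem100 and 30.1% of that for Pmp22.

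Distal genes had low likeness to Pmp22 above all. Of 31 listed, 25 had values and 20 were compared. Of these, 9 had a rank correlation of -0.3 or less with Pmp22 and 2 with Tmem100, against 2.12% and 0.725% of all genes. The median rank correlation was -0.279 and -0.153, against 0.0273 and 0.0638 over all genes. Low levels in cells with distal genes chose the members, and the 20 include Pou3f3 and Sox9, which set the distal class. These values are thus a description of that choice. The 4 highest in distal-only cells were the cyclin Ccnd1, the Notch ligand Jag1, the secreted protease inhibitor gene Wfdc2 and the transcription factor gene Lhx1. Their rank correlations with Pmp22 were -0.0105, -0.264, -0.294 and -0.0482, and with Tmem100 they were 0.0945, -0.126, -0.0330 and -0.176. None of the 4 passed -0.3. The exception in the list was Npy, a neuropeptide gene, with a rank correlation of 0.508 with Pmp22 and 0.194 with Tmem100 and a median of RPKM 221 in Wt1-only and 22.5 in distal-only cells.

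In median, podocyte genes had little likeness to either member, though a larger share of them than of all genes passed 0.3 with Pmp22. Of the 23 compared, 1 had a rank correlation of 0.3 or more with Tmem100 and 3 with Pmp22, against 5.07% and 4.18% of all genes. With Tmem100 it was the matrix gene Npnt (0.316). With Pmp22 they included Npnt (0.314) and Rasl11a (0.458), the last named after its values were seen. The peptidase gene Dpp4 had -0.339 and -0.416. The median rank correlation of the list was -0.0751 with Tmem100 and -0.0194 with Pmp22. With Tmem100 and Pmp22 in turn, Cldn5 had 0.235 and 0.291, Cdkn1c had -0.136 and 0.214, and Tcf21 had -0.112 and -0.278. The genes highest in the Synpo cells were thus not alike in their relation to the members over all cells.

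Of the BMP and ALK1 pathway, in which Tmem100 is known in endothelium, 26 of 32 genes had values and 15 were compared. Of the 15, 2 had a rank correlation of 0.3 or more with Tmem100 and 1 with Pmp22, against 5.07% and 4.18% of all genes. At -0.3 or less there were 0 and 1, against 0.725% and 2.12%. Counts this small say little. The target gene Id3 had a rank correlation of 0.392 with Tmem100 and 0.233 with Pmp22, and the receptor gene Tgfbr1 had 0.323 and 0.0253. The target gene Id1 had 0.198 and 0.427, and the ligand gene Bmp7 had -0.270 and -0.460. Id3 was detected in 53 of 57 cells and Id2 in 48, with a median for Id3 of RPKM 709 in Wt1-only and 454 in distal-only cells, and the receptor gene Bmpr1a in 39. The ligand gene Bmp4, detected in 34 cells, was at RPKM 59.6, 245 and 200 in the Synpo cells. Any part of the pathway in the level of Tmem100 was not tested. Acvrl1, which encodes ALK1 and was named after its values were seen, was detected in 3 cells, at RPKM 7.33 at most.

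Genes of the tetraspan family of Pmp22, with its partners and other growth arrest genes, gave 14 of 15 with values and 7 compared. None had a rank correlation of 0.3 or more with either member. Over all genes the shares were 5.07% with Tmem100 and 4.18% with Pmp22, so none among 7 says little. The integrin gene Itga6 had -0.219 with Tmem100 and -0.312 with Pmp22. The most widely detected were Gas1 in 27 cells, Itga6 in 24, Cldn5 in 22, and Emp3 and Tmem47 in 15 each. Named after their values were seen, the near relatives Emp1 and Emp2 were detected in 7 and 10 cells. Pmp22 itself was detected in more cells, 54, than any of these 14.

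S phase genes were more alike to both members than the median gene. Of 16 compared, 3 had a rank correlation of 0.3 or more with Tmem100 and 4 with Pmp22, against 5.07% and 4.18% of all genes. The median rank correlation was 0.217 and 0.283, against 0.0638 and 0.0273 over all genes. The replication genes Mcm7, Mcm6 and Gins2, named after their values were seen, had 0.403, 0.377 and 0.325 with Tmem100. Those with Pmp22, likewise named, were Mcm4 (0.399), Tyms (0.370), Mcm6 (0.369) and Rfc2 (0.323). Of the 16, 11 were 2-fold or more higher in Wt1-only than in distal-only cells, against 10.4% of all genes. In the Synpo cells 14 were 2-fold or more lower than in the other Wt1 cells, against 34.6%. The members were chosen by the same contrasts, so this likeness is not separate from that choice. G2/M genes had a median rank correlation of 0.0969 and -0.0350.

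**Figure D5:**
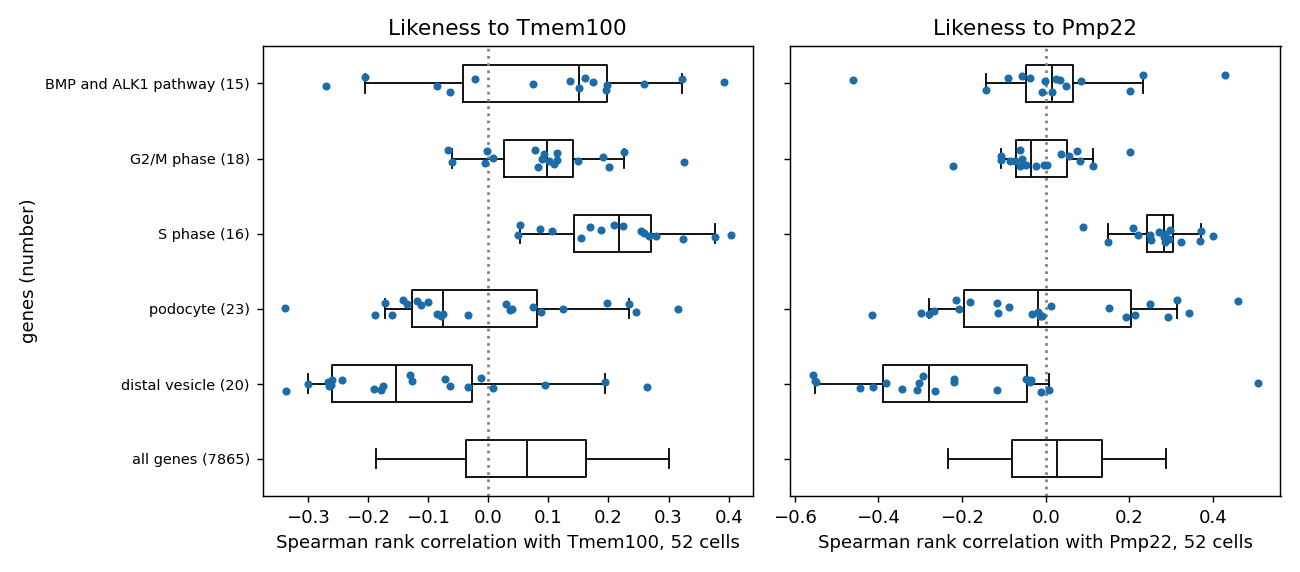
Spearman rank correlation over 52 cells with Tmem100 (left) and Pmp22 (right) for genes of 5 lists and for all 7865 other genes compared; boxes span the quartiles with the median, whiskers reach the percentiles 5 and 95, and points are genes of the lists. In median, distal genes lie below all genes, further so for Pmp22, and S phase genes lie above. Low levels in cells with distal genes are part of how the members were chosen.

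Markers of endothelium, Schwann cells, smooth muscle and stroma were low in the median Wt1-only cell and high in single cells. The 6 endothelial genes with values summed to RPKM 0 to 393, with a median of 16.0, and the most widely detected of them, Cldn5, is also a podocyte gene. In cell 9, which had the most Tmem100, this sum was 0. The 6 Schwann cell and myelin genes with values summed to 0 to 235, with a median of 2.91, and the most widely detected was Ngfr, a neurotrophin receptor gene, in 11 of 57 cells. In cell 29, which had the most Pmp22, that sum was 149. The 6 mesangial and smooth muscle genes with values, led by the smooth muscle actin gene Acta2 in 16 of 57 cells, summed to 0 to 1005 in Wt1-only cells, with a median of 22.5. The highest of these sums was that of cell 29, with 2 of the 6 genes at RPKM 20 or more, and its part in the Pmp22 level of that cell was not tested. The 10 stromal genes summed to a median of 21.9, led by Meis2 in 24 cells, and to 1478 in cell 13. The 7 parietal epithelium genes with values summed to a median of 152 in Wt1-only and 170 in distal-only cells. The 12 progenitor genes with values summed to 177 and 285, so neither list was low in the median Wt1-only cell. Defining genes of endothelium and of Schwann cells that were not among those with values were not analysed here.

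The authors' deposited table of 787 genes in 28 of the cells sets a proximal against a distal class, with 436 genes on the proximal side. In the authors' deposited table the signed fold was 172.9 for Tmem100, the highest of the 787, 96.1 for Wt1, 65.0 for Pmp22, -30.8 for Pou3f3 and -131.1 for Sox9. The class of each cell and the formula of the fold are not given in the sources used here. By the classes used here, 17 of the 28 cells had Wt1 only, 10 were distal only and 1 had neither. None of the 3 Synpo cells is in that table. In its own RPKM values, which differed from those of the larger table by factors of 0.787 to 1.49 for Tmem100 and 0.624 to 1.60 for Pmp22, Tmem100 ran from 0.714 through 269 to 639 in the 17 cells and from 0 through 0.237 to 22.3 in the 10.

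The cells of that table showed a sharper pattern for Tmem100 than the rest. In the larger table, Tmem100 was high in 15 of the 17 Wt1-only cells that are in the authors' table (median RPKM 285) and in 4 of the 17 that are not (median 0.717). Of the distal-only cells it was high in 0 of 10 in the table, which allows a share of up to 30.8%, and in both of the 2 outside it, cells 45 and 47. The mean log2 difference between the classes was 6.38 with the cells of the table and -3.51 with the others, where the second rests on 17 cells against 2. For Pmp22 the high cells were 16 of 17 in the table and 12 of 17 outside it, so its level was less tied to that choice of cells. The choice of the 28 cells is not described in the sources used here.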

How the data were processed

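RNA of 57 single cells was measured. The authors deposited RPKM values of 12087 genes, with the number of cells above RPKM 3, per the file headers. TopHat 1.4.1, DESeq and build mm9 are listed, with no role, per the submitters' processing notes. A second deposited table holds RPKM of 787 genes in 28 cells and a signed fold of the authors, treated as a score. The library kits keep no strand and no molecular identifiers, per the labels' protocols, so PCR copies were counted as reads.

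From these values, levels, shares with exact intervals and Spearman rank correlation were computed with Python 3.11.15, pandas 2.3.3 and SciPy 1.17.1. The rank correlation used the 52 cells with C1qb below RPKM 500 and genes at RPKM 1 or more in at least 10 of them, and was tested on simulated data. Fold comparisons used mean log2(RPKM + 1). Depth was estimated from genes whose low values are whole multiples of the value of 1 read, with 301 such genes of 1 annotated transcript for the absolute scale. Low values were whole in 9 of 11 for Tmem100 and 15 of 16 for Pmp22 (within 0.1 read, up to 20.5 reads), but in only 5 of 19 for Wt1, so no read numbers are given for Wt1.

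With 1 group from 1 pool no test was made. The genes, lists, limits and alternatives were chosen with earlier results of these data known. The text names, by rule, the 6 highest and 4 lowest genes by rank correlation, the 4 leading podocyte and distal genes, the 4 most widely detected pathway genes with those past 0.3, and the most widely detected marker of other types; exceptions are stated. Some genes named by this rule are left out.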

Additional observations from a re-analysis of the deposited data

Results flagged for a closer look

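Each group of 4 to 10 cells was checked for a cell far from the others in Tmem100 or Pmp22, and 4 of 8 checks marked one. The rate of about 1 in 20 that chance gives is for normally spread values and says nothing of groups whose other cells are all at 0, as in 2 of the 4. Cell 37 was marked in 2 overlapping groups. Tmem100 at RPKM 361 in cell 37 stood far above the other 3 cells with neither Wt1 nor a distal factor, which were at 0. The same cell stood above the other 8 cells with Wt1 below RPKM 1, of which the next had 156. Among the macrophage-like cells, cell 46 had Tmem100 at RPKM 0.818 and the others 0, a gap of about 2 reads. Among the 7 cells with Wt1 at RPKM 1 to below 20, cell 33 had Pmp22 at 50.5 and the next 10.7.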

How the results depend on the processing

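Of 214 recomputed values, 195 stayed within the limits set for their kind and kept their direction, 18 moved further and 1 reversed. For mean log2 differences the limit was the spread over cells, and for shares it was the exact interval of the main value. Rank correlations and numbers of genes had other limits. With few cells these limits are wide. Pmp22 was detected in 100% of the Synpo cells (interval 29.2 to 100). That share fell to 33.3% at RPKM 5 or 20 and was still counted as within the limits. The reversal was the Tmem100 difference between Wt1-only and distal-only cells, -3.51 with only the cells outside the authors' table, an alternative chosen after seeing the data that leaves 2 distal-only cells. For Pmp22 the share of Wt1-only cells detected was 100% with marker limits of RPKM 5 or 50 or with detection above 0, and 82.4% at RPKM 20. That of distal-only cells was 100% above 0, 33.3% at RPKM 5 and 16.7% at RPKM 20. That of all 52 cells was 100%, 71.2% and 65.4%, and that of the other Wt1 cells was 100% above 0 and with marker limits of RPKM 50. For Tmem100 the share of the 52 cells was 73.1% above 0 and 44.2% at RPKM 20, and that of the other Wt1 cells was 60.6% at RPKM 20. Genes with a rank correlation of -0.3 or less numbered 97 for Pmp22 and 34 for Tmem100 among genes detected in at least 20 cells, and 89 for Tmem100 without the 5 cells with the fewest genes. The rank correlation between the members was 0.335 to 0.555 over 6 alternatives. Leaving out each Synpo cell in turn gave differences of -4.97 to -4.58 for Tmem100 and -5.72 to -3.05 for Pmp22.

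No paired analysis was possible because the design has 1 group and the replicate numbers only name cells. With 1 pool, 3 Synpo cells and 5 macrophage-like cells, shares in those classes have wide intervals. At these depths RPKM 1 of either gene is about 1 to 4 reads, so values below it are not told apart from 0.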
